A study of Mus musculus with 2 samples.

Results

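The genes described here are 34 subunits of 2 families of proteins that work together at the cell surface: 24 integrin chains and 10 laminin chains. They were taken from a list of gene symbols, with no threshold on a measured level, and all 34 were found among 55536 annotated mouse genes. The samples were hearts of 14-day-old female B6CASTF1/J mice, which are first-generation hybrids of the strains C57BL/6J and CAST/EiJ, with no treatment named in the labels. Total RNA was sequenced in 2 libraries, called replicate 1 and replicate 2, which form 1 group. Both labels name the same donor, while the shared description speaks of 3 females and the tissue labels carry different animal numbers, so the spread between the libraries may be technical and no conditions could be compared. The design therefore allows levels, ratios between subunits and the difference between the 2 libraries to be described, and no test was made.

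Integrins are receptors made of 1 α and 1 β chain that span the membrane, bind the matrix outside the cell and link it to the actin cytoskeleton through talin, kindlin and other adaptors. Laminins are trimers of 1 α, 1 β and 1 γ chain, named by the numbers of those chains, and form the sheet of the basement membrane that surrounds cardiomyocytes, smooth muscle cells and capillaries. Cardiomyocytes hold laminin mainly through integrin α7β1 and through dystroglycan, and they attach their contractile apparatus to these sites at the costameres. Several of these chains exist in alternative forms that change the ligand-binding part or the tail inside the cell.

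The sequences below are shown because the results on isoforms turn on them: each is the alternative coding exon that separates 2 forms of a subunit. They were read 5′ to 3′ on the gene's strand from the GENCODE M21 transcripts (build GRCm38, the mm10 assembly). Capitals mark the alternative exon's coding bases and lower case the 15 coding bases on each side, where coding sequence continues. In Itga7 the mutually exclusive X1 exon (44 codons, chr10:128941445-128941576) and X2 exon (40 codons, chr10:128941822-128941941) encode part of the extracellular head that binds laminin. The third Itga7 exon (chr10:128956611-128956723) is found in the short transcript Itga7-204 and encodes the tail known as α7A.
Itga7 X2 exon: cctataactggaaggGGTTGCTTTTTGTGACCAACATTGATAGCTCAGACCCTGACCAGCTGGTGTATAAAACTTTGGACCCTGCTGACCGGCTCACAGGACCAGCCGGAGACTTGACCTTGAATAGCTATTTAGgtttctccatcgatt
Itga7 X1 exon: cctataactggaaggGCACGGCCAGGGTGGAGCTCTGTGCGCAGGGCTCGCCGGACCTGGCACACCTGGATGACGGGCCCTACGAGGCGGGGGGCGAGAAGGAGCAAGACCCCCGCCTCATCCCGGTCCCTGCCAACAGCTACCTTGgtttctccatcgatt
Itga7 tail exon: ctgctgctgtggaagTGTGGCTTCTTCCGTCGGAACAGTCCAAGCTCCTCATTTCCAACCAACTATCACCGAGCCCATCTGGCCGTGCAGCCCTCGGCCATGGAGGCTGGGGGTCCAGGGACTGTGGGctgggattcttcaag

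Itgb1 has alternative ends that encode the last part of the tail, where talin and kindlin bind. The end in Itgb1-201 (21 codons, chr8:128732023-128732085) is that of the common form β1A, and the end in Itgb1-204 (24 codons, chr8:128726983-128727054) is that of β1D, the form of striated muscle. Both ends hold 2 runs of codons for Asn-Pro-x-Tyr, the motif to which those adaptors bind. In Itga6 the A exon (35 codons, chr2:71853534-71853638) and the B exon (53 codons, chr2:71855854-71856012) encode alternative tails of the α6 chain. The capitals again mark the coding bases of the alternative exon.
Itgb1 last coding exon: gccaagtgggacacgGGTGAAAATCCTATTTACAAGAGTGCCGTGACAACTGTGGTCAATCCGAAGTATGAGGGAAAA
Itgb1 alternative last coding exon: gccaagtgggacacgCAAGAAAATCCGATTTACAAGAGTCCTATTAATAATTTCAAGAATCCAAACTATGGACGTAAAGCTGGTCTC
Itga6 A exon: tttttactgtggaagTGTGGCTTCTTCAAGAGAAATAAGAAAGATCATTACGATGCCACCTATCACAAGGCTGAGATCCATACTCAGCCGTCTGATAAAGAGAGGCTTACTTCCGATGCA
Itga6 B exon: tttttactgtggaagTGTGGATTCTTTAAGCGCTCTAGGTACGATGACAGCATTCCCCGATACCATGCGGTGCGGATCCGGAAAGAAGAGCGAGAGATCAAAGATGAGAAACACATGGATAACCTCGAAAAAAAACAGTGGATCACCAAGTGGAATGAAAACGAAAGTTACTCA

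Levels are given in TPM (the transcript share of a library, corrected for length), which are per length and so can be set side by side between genes. Unless named otherwise they come from the first of 2 deposited quantifications, the tables whose column names are those RSEM writes; the second has the column names of kallisto. The libraries held 36197643 and 34358598 expected counts in annotated genes, and a count of 0 would allow up to 0.0829 and 0.0873 CPM (counts scaled to the library total). All 6 cardiomyocyte markers examined were present, with summed levels of 30671 and 32333 TPM. Airway epithelium markers stood apart between the libraries: they summed to 184 TPM in replicate 1 and 12.2 TPM in replicate 2, and the secretoglobin Scgb1a1 was at 97.57 and 5.96 TPM. Endothelial markers summed to 307 and 299 TPM, fibroblast markers to 812 and 786 TPM, smooth muscle and pericyte markers to 411 and 404 TPM and mesothelial markers to 45.0 and 43.3 TPM. The libraries were made from heart tissue, so fewer cells of a type and less RNA per cell cannot be told apart.

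In these hearts 25 of the 34 subunits had a mean level of at least 1 TPM, 23 of them in both libraries. Across the genome 23.5% of annotated genes and 53.3% of the 22028 protein-coding genes reached that level. The median of the 25 subunits was 22.7 TPM, beside 9.81 TPM for all protein-coding genes that reached 1 TPM. Of the integrins, 12 of 16 α chains and 6 of 8 β chains reached 1 TPM, and of the laminins 3 of 5 α chains, 3 of 3 β chains and 1 of 2 γ chains. The order was led by Itgb1, Lamb2, Lamc1, Lama2, Itga7, Lamb1 and Lama4, the 7 subunits above 50 TPM. In the second quantification Itga6 and Itga9 also exceeded 50 TPM. There Lamc1, at 121 and 119 TPM, was above Lamb2, at 111 and 117 TPM. Lamb1, at 71.8 and 73.4 TPM, was above Itga7, at 62.7 and 68.4 TPM. Both changes also held over protein-coding transcripts of at least 2000 bases, a choice made after the data were seen. Lama4 was then at 36.45 and 37.44 TPM in the first quantification. The 9 members outside the 25 were below 1 TPM on average.

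**Figure D1:**
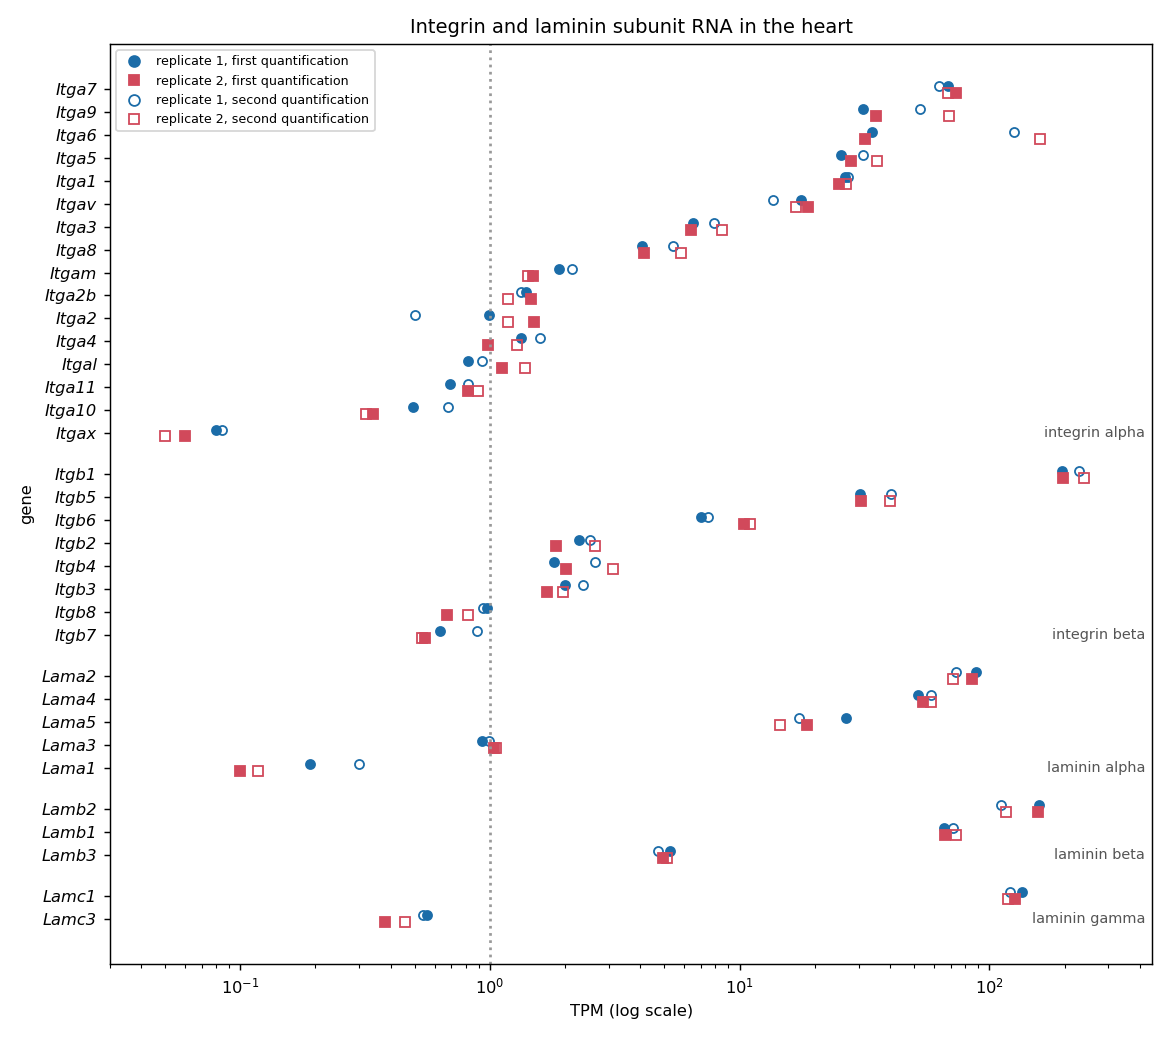
TPM (horizontal, log scale) of each of the 34 genes in replicate 1 (circles) and replicate 2 (squares), by the first quantification (filled) and the second (open), with a dotted line at 1 TPM. The filled symbols of the libraries lie close together for most genes, and the open symbols of Itga6 at 126 and 160 TPM lie far to the right of its filled ones at 33.79 and 31.79 TPM.

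Itgb1, the β chain shared by the laminin, collagen and fibronectin receptors, had the highest level of any member. It was at 195.51 TPM in replicate 1 and 197.10 TPM in replicate 2 (196 ± 1.12, SD, n = 2), from 15838 and 15747 expected counts, which places it above 97.1% of the 13043 genes at 1 TPM or more. It made up 80.9% ± 0.521 (SD, n = 2) of the summed TPM of the 8 β chains. Itgb5, which pairs with αV to bind vitronectin, followed at 30.47 and 30.61 TPM. The log2 ratio of Itgb1 to Itgb5 was 2.68 ± 0.0036 (SD, n = 2), or 6.43-fold. Itgb6, the αV partner best known from epithelia, where it activates latent TGF-β, was at 7.03 and 10.39 TPM.

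The remaining β chains were low. Itgb2, the leukocyte β chain, was at 2.27 and 1.83 TPM, and Itgb3, the chain of the platelet fibrinogen receptor and of αVβ3, at 1.99 and 1.69 TPM. Itgb4, which joins α6 in the hemidesmosomes of epithelia, was at 1.80 and 2.01 TPM. Both Itgb8 (0.97 and 0.67 TPM), another partner of αV, and Itgb7 (0.63 and 0.55 TPM), a lymphocyte chain, stayed under 1 TPM in each library. The levels of Itgb2, Itgb3 and Itgb4 lay close together, and Itgb4 was below Itgb2 in replicate 1 and above it in replicate 2.

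Among the α chains that bind laminin, Itga7, the muscle laminin receptor, was highest. It was at 68.21 TPM in replicate 1 and 73.70 TPM in replicate 2 (70.96 ± 3.88, SD, n = 2). Itga6, found in endothelium, epithelia and many other cells, was at 33.79 and 31.79 TPM (32.8 ± 1.41, SD, n = 2), and Itga3, a receptor for laminins with the α5 chain, at 6.52 and 6.40 TPM. In each library the order was Itga7, Itga6, Itga3, and Itga7 held 64.4% ± 2.13 (SD, n = 2) of their summed TPM. The first step of this order depended on the quantification: the log2 ratio of Itga7 to Itga6 was 1.11 ± 0.14 (SD, n = 2) in the first and -1.12 in the second, where Itga6 was at 126 and 160 TPM. Of the second quantification's Itga6 level, 71.1% lay in Itga6-205, a transcript of 443 bases annotated as processed and not as coding, which had 2.42% of the gene's level in the first. Over protein-coding transcripts of at least 2000 bases, a choice made after the data were seen, Itga6 was at 18.9 and 17.5 TPM in the first and 21.5 and 20.7 TPM in the second quantification, and the log2 ratio of Itga7 to Itga6 was 1.54 and 1.56.

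Of the 4 collagen-binding α chains, Itga1 was the only member above 2 TPM. Itga1, which binds the type IV collagen of basement membranes, was at 26.51 and 25.08 TPM (25.8 ± 1.01, SD, n = 2). Of this level 38.1% lay in Itga1-206, annotated as a retained intron, which had 25.5% in the second quantification. Over long protein-coding transcripts Itga1 was at 13.46 and 12.49 TPM in the first and 17.1 and 16.2 TPM in the second. Itga2 was at 0.99 and 1.5 TPM, Itga11, a fibroblast receptor for fibrillar collagen, at 0.69 and 0.82 TPM, and Itga10, known from cartilage, at 0.49 and 0.34 TPM from only 50.3 and 38.2 expected counts. The log2 ratio of Itga1 to the next of them, Itga2, was 4.40 ± 0.48 (SD, n = 2), and 5.13 in the second quantification. The genes Pelo and Gm49395 lie on the same strand within the span of Itga1 and had 341 and 362, and 104 and 133, expected counts, beside 5253 and 4744 for Itga1, so some reads may be shared between them.

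The α chains that bind fibronectin and other ligands with an Arg-Gly-Asp motif were led by Itga5, the fibronectin receptor chain, at 25.56 and 27.97 TPM (26.8 ± 1.70, SD, n = 2). Itgav was lower in both libraries, at 17.64 and 18.86 TPM, with a log2 ratio to Itga5 of -0.55 ± 0.02 (SD, n = 2). The ratio was larger in size in the second quantification, at -1.14, and over long protein-coding transcripts, at -1.47 in the first and -1.43 in the second. Itga8, the nephronectin receptor chain, was at 4.07 and 4.14 TPM. Itga2b, the α chain of the platelet receptor, was at 1.39 and 1.46 TPM from 71 and 85 expected counts. Platelet markers summed to 17.3 and 18.2 TPM, with 2 of 6 at 1 TPM or more. Their part in the levels of Itga2b and Itgb3 was not tested.

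Itga9, a receptor chain for tenascin-C and other ligands that is known from lymphatic endothelium and muscle, was at 31.13 and 35.26 TPM (33.2 ± 2.92, SD, n = 2). Its levels did not overlap those of Itga5, and lay on either side of those of Itga6: below in replicate 1 and above in replicate 2. Its close relative Itga4, a leukocyte chain that binds VCAM-1, was at 1.33 and 0.98 TPM. The 3 α chains of leukocytes were also low: Itgam, of macrophages and neutrophils, was at 1.89 and 1.49 TPM, Itgal, of lymphocytes and other leukocytes, at 0.82 and 1.12 TPM, and Itgax at 0.08 and 0.06 TPM from 9 and 6 expected counts. Macrophage markers were present for 8 of 8 genes and summed to 109 and 82.2 TPM. Lymphocyte markers were at 1 TPM or more for 0 of 8 genes and summed to 4.71 and 2.03 TPM, and neutrophil markers, 2 of 6 at that level, to 3.28 and 3.59 TPM.

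The laminin α chains were led by Lama2, the chain of muscle basement membrane that is mutated in congenital muscular dystrophy. Lama2 was at 88.08 TPM in replicate 1 and 85.13 TPM in replicate 2 (86.6 ± 2.09, SD, n = 2), from 14001 and 13111 expected counts. Lama4, a chain of vessel and muscle basement membrane, was at 51.56 and 54.18 TPM (52.9 ± 1.85, SD, n = 2), and Lama5, a chain of vessel and epithelial basement membrane, at 26.67 and 18.65 TPM (22.7 ± 5.67, SD, n = 2). The order Lama2, Lama4, Lama5 held in both libraries, and Lama2 was 1.64-fold Lama4, a log2 ratio of 0.71 ± 0.09 (SD, n = 2). That ratio was smaller in the second quantification, at 0.31, and was 0.65 and 0.42 over long protein-coding transcripts of the first and second. Lama2 made up 53.1% ± 0.637 (SD, n = 2) of the summed TPM of the α chains. Lama3, of the basement membrane of skin and other epithelia, was at 0.93 and 1.04 TPM, and Lama1, of the early embryo, at 0.19 and 0.10 TPM from 26 expected counts in each library.

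Among the laminin β chains Lamb2 exceeded Lamb1, the ratio that distinguishes laminins 221 and 421 from 211 and 411. Lamb2, a chain of muscle, synaptic and kidney basement membrane, was at 158.79 and 156.34 TPM (158 ± 1.73, SD, n = 2), and Lamb1, the widespread β chain, at 66.04 and 66.18 TPM. The log2 ratio of Lamb1 to Lamb2 was -1.25 ± 0.02 (SD, n = 2). The direction was the same but the size smaller in the second quantification, at -0.65, and over long protein-coding transcripts, at -0.54. Lamb2-206, an annotated coding transcript of 345 bases, had 31.5% of the Lamb2 level in the first quantification and 0 TPM in the second. Lamb3, a chain of epithelial laminin, was at 5.26 and 4.94 TPM.

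A single γ chain carried nearly all of the γ level. Lamc1, the γ chain of most laminins, was at 135.13 and 126.69 TPM (131 ± 5.97, SD, n = 2), with 23390 and 21562 expected counts, and Lamc3 was at 0.56 and 0.38 TPM. The log2 ratio of Lamc1 to Lamc3 was 8.15 ± 0.33 (SD, n = 2). General epithelium markers summed to 5.44 and 3.96 TPM with 2 of 8 at 1 TPM or more, and the part of epithelial cells in the levels of Lama3, Lamb3, Itgb4 and Itgb6 was not tested.

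Summed by class, the chains were present in amounts of the same order. The α chains of integrins summed to 221 and 231 TPM and the β chains to 241 and 245 TPM. The 12 α partners of Itgb1 summed to 217 and 227 TPM, somewhat above Itgb1 itself at 195.51 and 197.10 TPM. The excess was larger in the second quantification, at 330 and 394 TPM beside 229 and 239 TPM for Itgb1. Over long protein-coding transcripts of the first, the partners summed to 153 and 163 TPM beside 143 and 148 TPM for Itgb1. Itgb3, Itgb5, Itgb6 and Itgb8, which all pair with Itgav, summed to 40.5 and 43.4 TPM beside 17.64 and 18.86 TPM for Itgav. Laminin α chains summed to 167 and 159 TPM, β chains to 230 and 227 TPM and γ chains to 136 and 127 TPM, so that β chains exceeded α and γ chains in both libraries. Over long protein-coding transcripts the α chains came to 109 and 107 TPM, the β chains to 156 and 160 TPM and the γ chains to 107 and 102 TPM, with the β chains again highest. RNA levels do not give the amounts of the assembled proteins.

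The level of the scarcest chain was used to describe each complex, as a measure of RNA and not of protein. Of 22 known integrin dimers among the members, 14 had every chain at 1 TPM or more in both libraries and 7 at 10 TPM or more. Those 7 were α7β1, α9β1, α6β1, α5β1, α1β1, αVβ1 and αVβ5, and the α chain was the scarcer side in each. Both numbers depend on the transcripts counted. Over long protein-coding transcripts αVβ1 and αVβ5, limited by Itgav, fell under 10 TPM, at 8.47 and 8.95 TPM. The dimer αIIbβ3, 1 of the 14, fell under 1 TPM, at 0.45 and 0.85 TPM. Further down, αVβ6 was limited by Itgb6 at 7.03 and 10.39 TPM, α3β1 by Itga3 at 6.52 and 6.40 TPM and α6β4 by Itgb4 at 1.80 and 2.01 TPM. In the remaining 8 dimers the lowest chain was under 1 TPM in at least 1 library. Of 13 laminin trimers, 6 had every chain at 10 TPM or more: laminins 211, 221, 411, 421, 511 and 521. Lamb1 was the lowest chain of laminin 211, Lama2 that of 221, Lama4 that of 411 and 421, and Lama5 that of 511 and 521. Over long protein-coding transcripts Lama2 was the lowest chain of both 211 and 221, at 57.6 and 58.0 TPM. It was also the lowest of both in replicate 2 of the second quantification, at 71.7 TPM. The other 7 trimers contain Lama1, Lama3 or Lamc3 and were limited by that chain to under 1 TPM in at least 1 library.

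**Figure D2:**
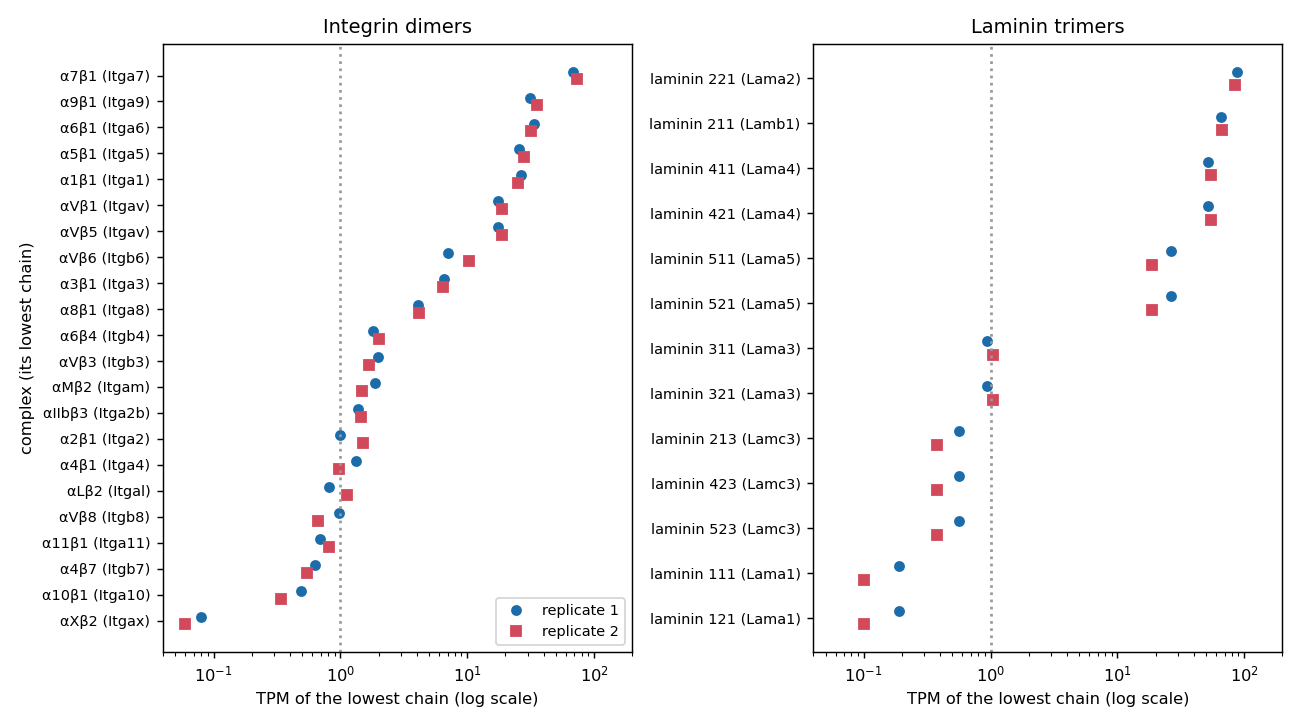
TPM of the lowest chain (horizontal, log scale) of each of 22 integrin dimers (left) and 13 laminin trimers (right) in replicate 1 (circles) and replicate 2 (squares), with the lowest chain named in brackets and a dotted line at 1 TPM. Dimer α7β1 at 68.21 and 73.70 TPM and laminin 221 at 88.08 and 85.13 TPM stand at the top, and the 6 laminins above 10 TPM are set apart from 7 near or below 1 TPM.

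Likely receptor and ligand pairs were then set side by side, each integrin and laminin by its lowest chain and each other ligand by 1 gene. Of 25 pairs, 16 had both sides at 1 TPM or more in both libraries; the ligand was higher in 10 and the receptor in 6 of them, the same way in each library. Of the 16, 12 kept their direction in every library, in the second quantification, in the posterior mean and over long protein-coding transcripts where these exist. Laminins 511 and 521 are both set by Lama5, so their pairs with α6β1 hold the same values, as do those with α3β1. All of these pairs are counted above. The muscle pair came out nearly level. Receptor α7β1 at 68.21 and 73.70 TPM faced laminin 211 at 66.04 and 66.18 TPM, a log2 ratio of ligand to receptor of -0.10 ± 0.08 (SD, n = 2), and laminin 221 at 88.08 and 85.13 TPM, a log2 ratio of 0.29 ± 0.11 (SD, n = 2). The sign of both changed with the transcripts counted: laminin 211 over α7β1 was 0.13 in the second quantification and laminin 221 over α7β1 was -0.14 over its long protein-coding transcripts.

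For α6β1 the vascular laminins lay on either side of the receptor. Laminin 411 exceeded it, with a log2 ratio of 0.69 ± 0.11 (SD, n = 2), while laminins 511 and 521, limited by Lama5, were below it at -0.56 ± 0.30 (SD, n = 2), and at -3.17 in the second quantification. The ratio of laminin 411 turned to -1.28 in the second quantification, with the high level of Itga6-205 described above, and was 1.02 and 0.99 over long protein-coding transcripts of the first and second quantification. Against α3β1, laminin 511 was 3.45-fold higher, a log2 ratio of 1.79 ± 0.35 (SD, n = 2). That ratio was 0.95 in the second quantification, and 1.16 and 1.2 over long protein-coding transcripts of the first and second. Laminin 111, the embryonic ligand of α6β1, was limited by Lama1 to 0.19 and 0.10 TPM.

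Outside the laminins, the widest gap on the ligand side among pairs above 1 TPM was that of Col4a1. Col4a1, a chain of the collagen network of basement membranes, was at 438 and 430 TPM, 16.8-fold α1β1 (log2 ratio 4.07 ± 0.04, SD, n = 2). This is the ratio of 1 chain and not of the lowest chain of collagen IV: Col4a2 was lower, at 239 and 234 TPM. The log2 ratio of Col4a1 to α1β1 was 4.46 in the second quantification. Over long protein-coding transcripts it was 4.58 in the first and 4.37 in the second. Fibronectin, encoded by Fn1, was at 94.0 and 93.7 TPM, 3.51-fold α5β1 (log2 ratio 1.81 ± 0.10, SD, n = 2). Tenascin-C showed the reverse: Tnc was at 1.82 and 1.75 TPM, and α9β1 was 18.6-fold higher (log2 ratio -4.21 ± 0.17, SD, n = 2). That gap was also seen in the second quantification, at -4.96, and over its long protein-coding transcripts, at -4.11.

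The other pairs had smaller gaps or a side near 1 TPM. Npnt, which encodes nephronectin, was at 2.29 and 2.67 TPM, below α8β1 in both libraries (log2 ratio -0.73 ± 0.14, SD, n = 2). Vtn, vitronectin, was at 15.3 and 14.7 TPM, above αVβ3 (3.03 ± 0.13, SD, n = 2) and just below αVβ5 (-0.28 ± 0.11, SD, n = 2), the latter turning to 0.26 in the second quantification. Tgfb1, whose latent form is bound by αVβ6, was at 13.3 and 14.1 TPM, above that receptor (0.68 ± 0.34, SD, n = 2). Icam1 was at 3.54 and 3.62 TPM, above αMβ2 (1.09 ± 0.27, SD, n = 2).

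In the remaining pairs the receptor, the ligand or both were below 1 TPM in at least 1 library. Col1a1, fibrillar collagen of fibroblasts, was at 231 and 233 TPM beside α2β1 and α11β1, and Vcam1 at 5.95 and 5.75 TPM beside α4β1. Col2a1, of cartilage, was at 0.17 and 0.10 TPM beside α10β1, and Madcam1, of gut vessels, at 0.00 and 0.04 TPM beside α4β7. Fgg, the fibrinogen chain made by the liver, was at 0.02 TPM in both libraries beside αIIbβ3. Fibrinogen reaches the heart with the blood, so its RNA is not a measure of the ligand there.

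Isoforms of the muscle subunits were read from the transcripts that carry the exons printed above. For Itga7, the transcript with the X2 exon, Itga7-201, was at 41.71 and 44.28 TPM, and that with the X1 exon, Itga7-202, at 10.21 and 9.88 TPM. X2 thus made up 81.0% ± 1.01 (SD, n = 2) of both in the first quantification and 80.6% ± 0.529 (SD, n = 2) in the second. Each library lay between 80.2% and 81.8% in either quantification. The short transcript with the α7A tail, Itga7-204, gave no such accord: it was at 13.56 and 17.32 TPM in the first quantification and 0.561 and 1.05 TPM in the second. Its share of the 3 coding transcripts was 22.5% ± 2.49 (SD, n = 2) and 1.27% ± 0.472 (SD, n = 2).

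For Itgb1, the transcript with the common β1A end, Itgb1-201, was at 142.88 and 147.87 TPM, and Itgb1-204, with the end of muscle form β1D, at 50.35 and 47.65 TPM. Itgb1-204 made up 25.2% ± 1.19 (SD, n = 2) of both in the first quantification and 28.3% ± 0.604 (SD, n = 2) in the second. Its model is only 711 bases long against 3815 for Itgb1-201 and rested on 866 and 791 expected counts, so reads from the rest of a β1D message could not be assigned to it. For Itga6 the A exon, in Itga6-201 and Itga6-207, made up 81.2% ± 2.75 (SD, n = 2) of the transcripts with an A or B exon in the first quantification, and 52.7% ± 3.69 (SD, n = 2) in the second. The transcript with the B exon, Itga6-202, was at 3.93 and 2.95 TPM in the first and 10.7 and 9.26 TPM in the second quantification.

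**Figure D3:**
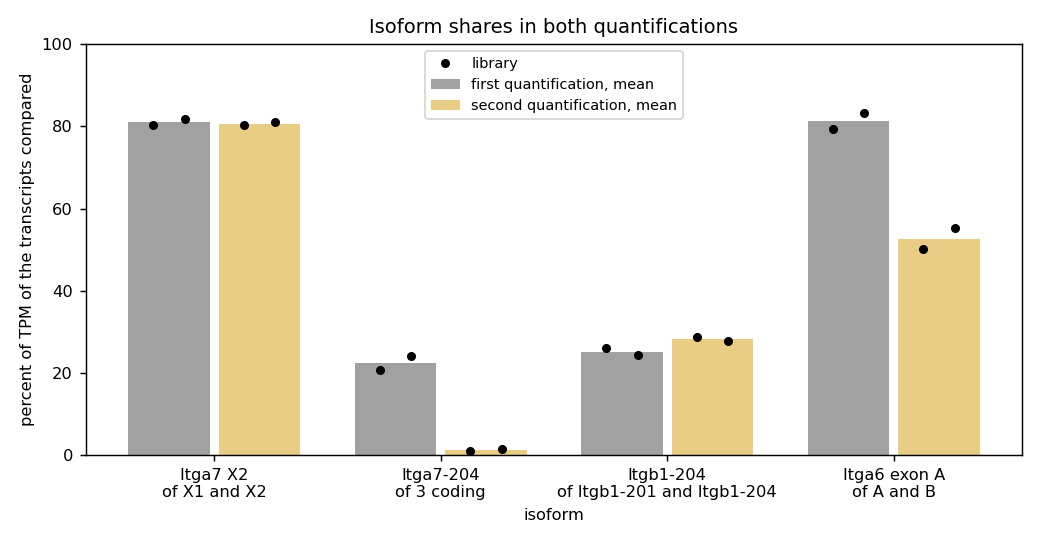
Share in percent (vertical) of the X2 exon of Itga7, of Itga7-204, of Itgb1-204 and of the A exon of Itga6 among the transcripts compared, as the mean (bars) and the 2 libraries (points, replicate 1 on the left) in the first (grey) and second (yellow) quantification. Bars agree for X2 at 81.0% and 80.6% and lie close for Itgb1-204 at 25.2% and 28.3%, and differ for Itga7-204 and for the A exon.

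Of the 14 members with at least 10 TPM, 12 had 1 and the same transcript in the lead in either quantification. The exceptions were Itga6 and Itgb5, led by Itgb5-202 with 61.3% in the first and by Itgb5-207 with 31.1% in the second. In the first quantification all 14 leaders were annotated as protein coding, and in the second 13, the exception being Itga6-205. Gene levels of the 25 members at 1 TPM or more lay within 1.5-fold between the quantifications for 22. Itga6 was 4.36-fold, Itga9 1.83-fold and Itgb4 1.51-fold higher in the second. On long protein-coding transcripts 24 of 25 lay within 1.5-fold, all but Itga4 at 1.83-fold, so the ratios above that involve Itga6 rest on which transcripts are counted.

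**Figure D4:**
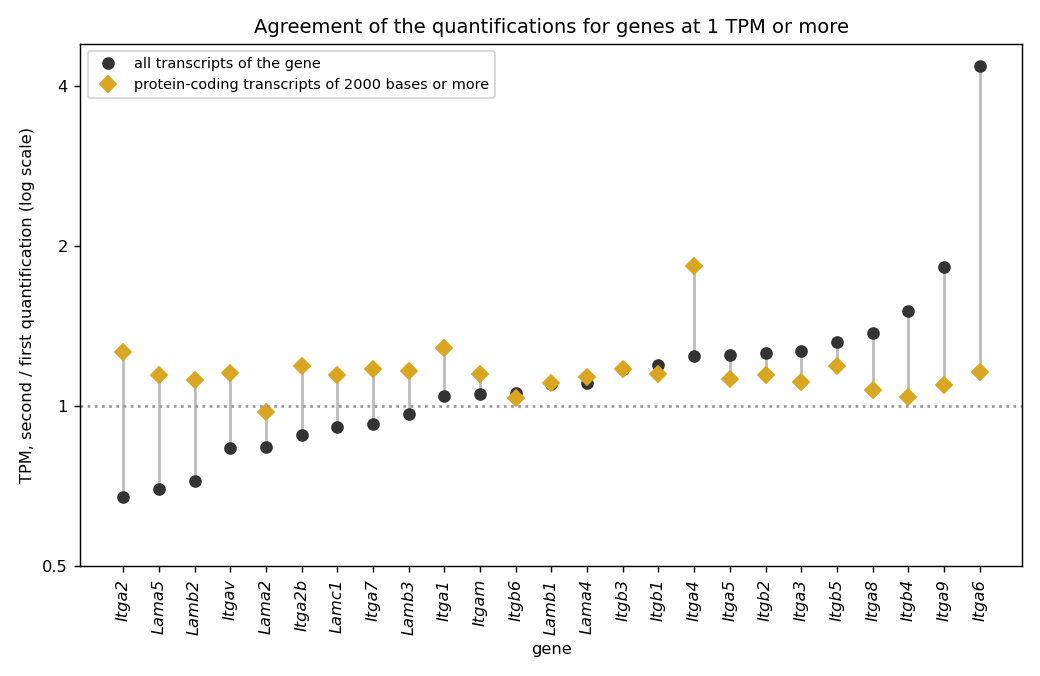
Ratio of TPM in the second to the first quantification (vertical, log scale) for the 25 genes at 1 TPM or more, over all transcripts (circles) and over protein-coding transcripts of at least 2000 bases (diamonds). Itga6 stands at 4.36 over all transcripts and 1.16 over the long coding ones, and Lama5 at 0.699 and 1.14.

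The libraries were compared by size, with no test. A gene was called where log2(TPM + 1) differed by at least 1 after removal of the median difference, the mean expected count was at least 50 and the deposited intervals of the TPM did not overlap. Of the 34 members 30 had enough counts, and 0 were called, beside 45 of 12876 genes (0.349%; 0.303% higher in replicate 1 and 0.0466% higher in replicate 2). The deposited intervals alone did not overlap for 2 of the 30, Lama5 and Itgb6, beside 12.1% of all genes (5.62% higher in replicate 1 and 6.5% in replicate 2). The median absolute difference of the 30 was 0.10 on the log2(TPM + 1) scale and that of all genes tested 0.11.

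Lama5 was the member with the largest difference, 0.52 on the log2(TPM + 1) scale. It was at 26.67 TPM in replicate 1 (deposited interval 23.3 to 29.5) and 18.65 TPM in replicate 2 (16.2 to 21.04), from 4471 and 3417 expected counts. Scaled by the library totals the ratio of its counts was 1.24, with a 95% counting interval of 1.19 to 1.30. Replicate 1 was also higher over the long coding transcript, at 13.50 and 10.78 TPM, and in the second quantification, at 17.2 and 14.5 TPM. Itgb6 went the other way, at 7.03 TPM (6.75 to 9.0) and 10.39 TPM (9.69 to 12.8), from 732 and 973 expected counts, a count ratio of 0.714 (0.648 to 0.787). The sum of the airway epithelium markers was higher in replicate 1, the library with the lower Itgb6 and the higher Lama5. The part of airway epithelium in either difference was not tested.

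With counts scaled by the library totals, the counting interval excluded 1 for 17 of the 30 members, beside 36.1% of all genes. Of the members 6 were higher in replicate 1 and 11 in replicate 2 (12.0% and 24.1% of all genes). The scaling factors of edgeR, 0.986 for replicate 1 and 1.014 for replicate 2, adjust those totals and would raise every ratio. The part of scaling in the lean to replicate 2 was not tested. Lamb2 had a ratio of 0.951 (0.929 to 0.973), although its TPM was higher in replicate 1, at 158.79 and 156.34. Counting intervals are narrow at these depths: Lamc1 with 23390 and 21562 counts had a ratio of 1.03 (1.01 to 1.05). They cover the counting of reads and not the spread between animals or preparations. Among the wider differences, Itgam had a ratio of 1.58 (1.28 to 1.95) from 243 and 146 counts and Itga9 a ratio of 0.810 (0.781 to 0.840). Itgb2, the partner of Itgam, had a ratio of 1.25 (0.997 to 1.57), an interval that includes 1 with this scaling by totals. The sum of the macrophage markers was higher in the same library as Itgam, at 109 and 82.2 TPM, but not every marker of the 8 was. Lyz2, the highest of them, was at 38.91 and 25.89 TPM, and Csf1r was nearly level at 13.46 and 13.16 TPM. The part of macrophages in the difference of Itgam was not tested.

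**Figure D5:**
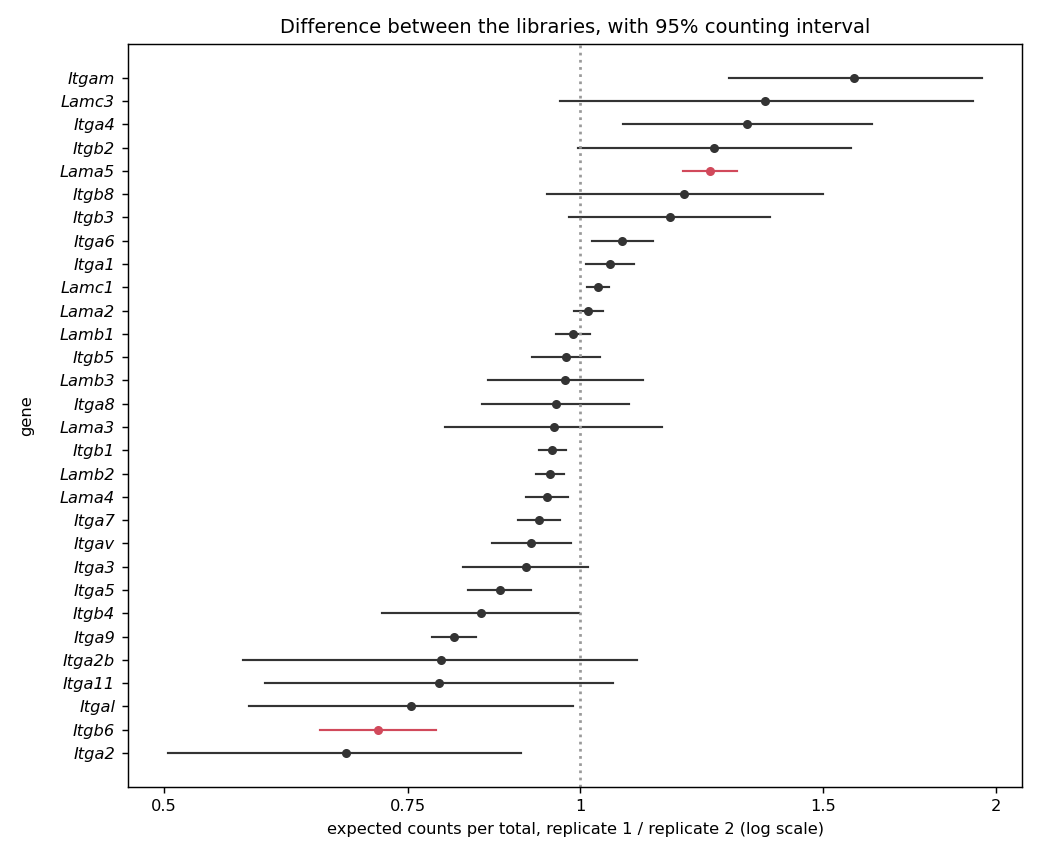
Ratio of expected counts, each scaled by its library total, in replicate 1 over replicate 2 (horizontal, log scale) for the 30 members with a mean count of at least 50, with lines for the exact 95% counting interval; red marks genes whose deposited TPM intervals do not overlap. Points run from Itga2 at 0.677 to Itgam at 1.58, with Lama5 at 1.24 and Itgb6 at 0.714 in red.

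Of 20 genes listed as integrin adaptors, 18 were at 1 TPM or more, with a median of 32.9 TPM over the list and 0 called as different. The highest were the tensin Tns1, at 316 and 248 TPM, the kindlin Fermt2, at 122 and 109 TPM, Itgb1bp2, which encodes the muscle β1-binding protein melusin, at 85.2 and 83.5 TPM, and Lims1, at 69.5 and 74.8 TPM. The epithelial kindlin gene Fermt1, at 0.01 and 0.00 TPM, was the lowest of the 20. Of 13 partners of laminin in basement membranes, 13 were at 1 TPM or more, with a median of 31.0 TPM and 0 called. After Col4a1 they were led by Col4a2 at 239 and 234 TPM, perlecan (Hspg2) at 183 and 179 TPM and Col15a1 at 99.2 and 100.01 TPM.

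Among laminin receptors other than integrins and partners of laminin receptors, the 3 highest lay above Itga7 in both libraries. All 7 examined were at 1 TPM or more, with a median of 18.3 TPM and 0 called. Dag1, which encodes dystroglycan, the receptor that links laminin to dystrophin, was at 159 and 144 TPM. The tetraspanin Cd151, which associates with laminin-binding integrins, was at 108 and 118 TPM, and Bcam, a receptor for laminin α5, at 98.8 and 106 TPM, above Lama5 itself. Of 18 other integrin ligands 12 were at 1 TPM or more, with a median of 4.72 TPM and 0 called. Outside the 34 members, the leukocyte α chains Itgad, at 0.12 and 0.01 TPM, and Itgae, at 0.02 and 0.04 TPM, were below 1 TPM.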

How the data were processed

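Heart RNA of 2 libraries, was analysed; per the labels each took 300 ng of ribosome-depleted total RNA and ERCC spike-ins. Per the deposited readme, features are those of mm10 and GENCODE M21. Not given in the sources used here were programs, versions and how CAST/EiJ alleles were handled. For the first quantification, the deposited tables of genes and transcripts give unnormalized expected counts, TPM, posterior mean TPM and its interval bounds (a deposited score for the precision of 1 library). In them the deposited percent says how a gene's level divides among its transcripts. The deposited second quantification gives estimated counts and TPM of transcripts, summed here to genes. Members are a list of gene symbols with no threshold on a measured level, but they and the other gene lists were chosen with earlier results of these data known; any member may be named, and of other lists the 4 highest genes, those called and the ligands paired with receptors. A further gene of a list is not reported here. The lowest adaptor, Fermt1, was named after its value was seen.

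With 1 group of 2 libraries no test was made: values are per library or mean ± SD. The rule for a difference used a pseudocount of 1 and a count minimum of 50. It was tested on simulated data, and the outcome is not reported here. Exact Clopper-Pearson intervals at 95% and the limit of 3 counts cover counting error only. Over genes with a mean count of at least 10, the chi-square per degree of freedom between the libraries was 12.6, a multiple of the sampling variance. The libraries were therefore not 1 library deposited again. This does not show that they came from separate animals. Expected counts were whole within 0.01 for 30 of 34 members; 18 have another annotated gene in their span. Alternatives were the second quantification, the posterior mean TPM, other thresholds and pseudocounts, edgeR 4.0.16 and DESeq2 1.42.0 scaling of counts under R 4.3.3, leaving out each library, and, added after the data were seen, long protein-coding transcripts. Other work used Python 3.11.15, numpy 2.4.6, pandas 2.3.3 and scipy 1.17.1.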

Additional observations from a re-analysis of the deposited data

How the results depend on the processing

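Members at 1 TPM or more ran in number from 19 to 31 over the settings tried, beside 25: it was 26 in the second quantification, 27 by posterior mean TPM, 22 over long protein-coding transcripts (added after the data were seen), 30 at a threshold of 0.5 TPM, 19 at 2 TPM, 31 with TPM rescaled over nuclear protein-coding genes, and 26 and 24 without replicate 1 and without replicate 2. Members called as different between the libraries were 0 under all 8 settings, in which 25 to 89 of all genes were called.

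The share of Itgb1 among β chains was 79.97% in the second quantification, 79.4% by posterior mean, 79.0% by expected counts without correction for length, and 76.5% and 76.4% over long protein-coding transcripts of the first and second quantification. That of Itga7 among Itga3, Itga6 and Itga7 was 30.4% in the second quantification and 69.2% and 69.6% over long transcripts. That of Lama2 was 49.0% in the second quantification, 56.0% by counts and 49.7% over long transcripts of the second. That of Lamb2 was 59.5% in the second quantification, 68.6% by posterior mean, 58.1% by counts, and 57.7% and 58.0% over long transcripts.

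The log2 ratios that changed sign were Itga7 over Itga6, at -1.12, laminin 211 over α7β1, at 0.13, laminin 411 over α6β1, at -1.28, and Vtn over αVβ5, at 0.26, in the second quantification, laminin 211 over α7β1, at 0.12, over long transcripts, and laminin 221 over α7β1, at -0.14, over long transcripts of the second. Their cause was not tested. Vtn has no coding transcript of that length. No paired analysis was possible because there is 1 group. Depth limits Itga10, Itgax, Itgb7 and Lama1, whose mean counts were under 50.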
